A study of Homo sapiens with 27 samples.

Results

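The SLC25 genes encode the mitochondrial carrier family, the proteins that move metabolites, nucleotides, cofactors and ions across the inner mitochondrial membrane. Its members were taken as every gene in the deposited tables whose symbol is SLC25A followed by a number, which gave 48 of 27115 genes. RNA sequencing had been done on 27 libraries from Karpas422, OCI-LY1 (OCI-Ly1 in the labels) and HBL1, 3 established human lines of diffuse large B-cell lymphoma that the study assigned to the oxidative phosphorylation, germinal centre B-cell like and activated B-cell like subtypes. Each line received a scramble shRNA (shCtr, labelled shCTRL), shSIRT3-1 or shSIRT3-2, and RNA was taken at day 8, with 3 libraries in each of the 9 groups. In all groups, controls included, the shRNA was carried by a pLKO.1 lentivirus with YFP and puromycin resistance. A subtype was represented by 1 line, so line and subtype cannot be told apart, and nothing in the labels says that the 3 libraries of a group came from separate cultures. Per the study's methods OCI-LY1 was kept in Iscove's medium, and Karpas422 and HBL1 in RPMI with added L-glutamine and HEPES. Differences of OCI-LY1 from the other lines therefore cannot be told apart from medium.

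Carriers share a fold built from a repeated pair of membrane-spanning helices, and most exchange a substrate of the matrix for one of the cytosol. They feed the tricarboxylic acid cycle with citrate, malate, 2-oxoglutarate, aspartate and glutamate, supply phosphate and ADP to ATP synthase, and bring in the cofactors that matrix enzymes use. SIRT3, the target of both hairpins, is an NAD-dependent deacetylase of the mitochondrial matrix that acts on many metabolic enzymes.

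Deposited values were CPM, reads scaled to a common library total, and 1 read was worth 0.00831 to 0.0157 CPM. Reads on genes numbered 28694398 to 53405456 per library (median 45669254) and made up 40.3% to 45.6% of that total. SIRT3 fell in every line. It stood at 9.99, 9.14 and 10.2 CPM in the Karpas422 controls, at 2.44, 2.79 and 2.57 CPM with shSIRT3-1 and at 6.24, 5.32 and 4.41 CPM with shSIRT3-2. Over the 3 lines its log2 fold change was -2.45 with shSIRT3-1 and -1.37 with shSIRT3-2, so the first hairpin left less SIRT3 RNA. B-cell markers were present in all lines, although CD22 went down to 9.26 CPM in Karpas422 and 4.55 CPM in HBL1. IRF4, BATF, CCND2 and PIM1, genes of the activated B-like type, were highest in HBL1, where MME and MYBL1, of the germinal centre type, were at most 0.336 and 1.72 CPM. BCL6, on the same germinal centre list, was at 61.7 to 180.1 CPM in HBL1 and overlapped OCI-LY1 (142 to 275 CPM). Of that list LMO2 was at most 2.52 CPM in all 3 lines, and SERPINA9 was at 43.4 to 282.6 CPM in Karpas422 and at most 11.8 CPM in the other two. The T-cell gene CD3G reached 17.6 to 41.4 CPM in Karpas422 while CD3D, CD3E and CD2 stayed at or under 1.59 CPM, and COL1A2 and EPCAM were at 1.72 to 62.0 and 3.50 to 7.27 CPM in HBL1. The part of these off-type genes in the results was not tested.

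Members under 1 CPM in all 27 libraries were listed as not expressed. There were 8 of them, SLC25A2, SLC25A6, SLC25A18, SLC25A31, SLC25A47, SLC25A48, SLC25A52 and SLC25A53, and only SLC25A53 exceeded 0.5 CPM in any library (highest 0.545 CPM). SLC25A6, the third ADP/ATP carrier, lies in the pseudoautosomal region that the build holds on both X and Y, and how the authors counted reads with more than 1 match is not given in the sources used here. Its near-zero value (at most 0.00907 CPM) is therefore no measure of its expression. The remaining 40 members all passed the low-value filter (at least 1 CPM in at least 3 libraries), and 33 of them were at 1 CPM or more in every library.

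Promoter sequence was printed for 3 carriers that stand for the patterns described below, SLC25A42 (lower with both hairpins), SLC25A15 (lower with shSIRT3-2) and SLC25A44 (higher with shSIRT3-1). Each is the 250 bases before the transcription start in RefSeq, build GRCh38.p14, plus strand, at chr19:19063744-19063993, chr13:40789361-40789610 and chr1:156193854-156194103. Capitals mark the letters CCAAT, read on either strand.
SLC25A42: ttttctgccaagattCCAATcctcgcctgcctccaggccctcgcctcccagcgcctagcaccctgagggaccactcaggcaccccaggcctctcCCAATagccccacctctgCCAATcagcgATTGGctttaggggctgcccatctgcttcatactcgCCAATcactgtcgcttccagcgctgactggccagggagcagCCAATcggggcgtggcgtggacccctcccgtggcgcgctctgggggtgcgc
SLC25A15: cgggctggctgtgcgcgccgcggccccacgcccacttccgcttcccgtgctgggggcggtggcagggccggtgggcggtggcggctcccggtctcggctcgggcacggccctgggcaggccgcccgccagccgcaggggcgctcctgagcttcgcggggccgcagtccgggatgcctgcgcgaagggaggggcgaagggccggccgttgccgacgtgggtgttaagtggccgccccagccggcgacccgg
SLC25A44: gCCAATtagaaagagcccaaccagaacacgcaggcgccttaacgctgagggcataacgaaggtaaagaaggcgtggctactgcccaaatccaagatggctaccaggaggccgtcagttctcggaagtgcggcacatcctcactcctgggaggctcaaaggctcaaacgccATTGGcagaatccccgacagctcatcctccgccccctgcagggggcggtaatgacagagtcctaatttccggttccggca
The SLC25A42 window held 6 CCAAT matches, the SLC25A44 window held 2 and the SLC25A15 window held 0, with 65.2%, 57.6% and 79.6% G and C. RefSeq promoters were found for 40 of the 48 members (51 entries, since a gene can have several starts), and SLC25A30 was among the 8 without one. Among those 51 entries 43.1% held CCAAT, against 32% of all 35116 promoters in the table. The other letters searched, on both strands, were CACGTG (15.7% of member entries, 6.34% of all), CCGGAAG (21.6% and 8.52%), TGATGNAA (1.96% and 3.14%) and AAGGTCA (1.96% and 3.44%). Such matches describe these windows only, and some genes enter through more than 1 start.

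Leaving aside SLC25A6, whose value is no measure of its expression, the ADP/ATP carrier SLC25A5 had the highest level in the family. Levels were compared between genes as CPM per kb of annotated exon, averaged over all 27 libraries. SLC25A5 reached 113.8 CPM per kb, followed by the citrate carrier SLC25A1 (23.7), the glutathione carrier SLC25A39 (23.1), the phosphate carrier SLC25A3 (22.6) and the uncoupling-protein relative SLC25A27 (11.5). The order of SLC25A1, SLC25A39 and SLC25A3 changed when the longest transcript gave the length (29.7, 36.7 and 33.0 CPM per kb), so these neighbours were not separated. By that length SLC25A27 (12.9) ranked 7, behind SLC25A36 (20.0) and SLC25A23 (14.6). Per kb of exon SLC25A36 (11.25) was also close to SLC25A27, so the place of SLC25A27 depended on the length used. SLC25A5 has pseudogenes and near copies, and reads may be shared among them. In control cells SLC25A5 was highest in Karpas422 (147 CPM per kb), with 123 in OCI-LY1 and 100 in HBL1.

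**Figure D1:**
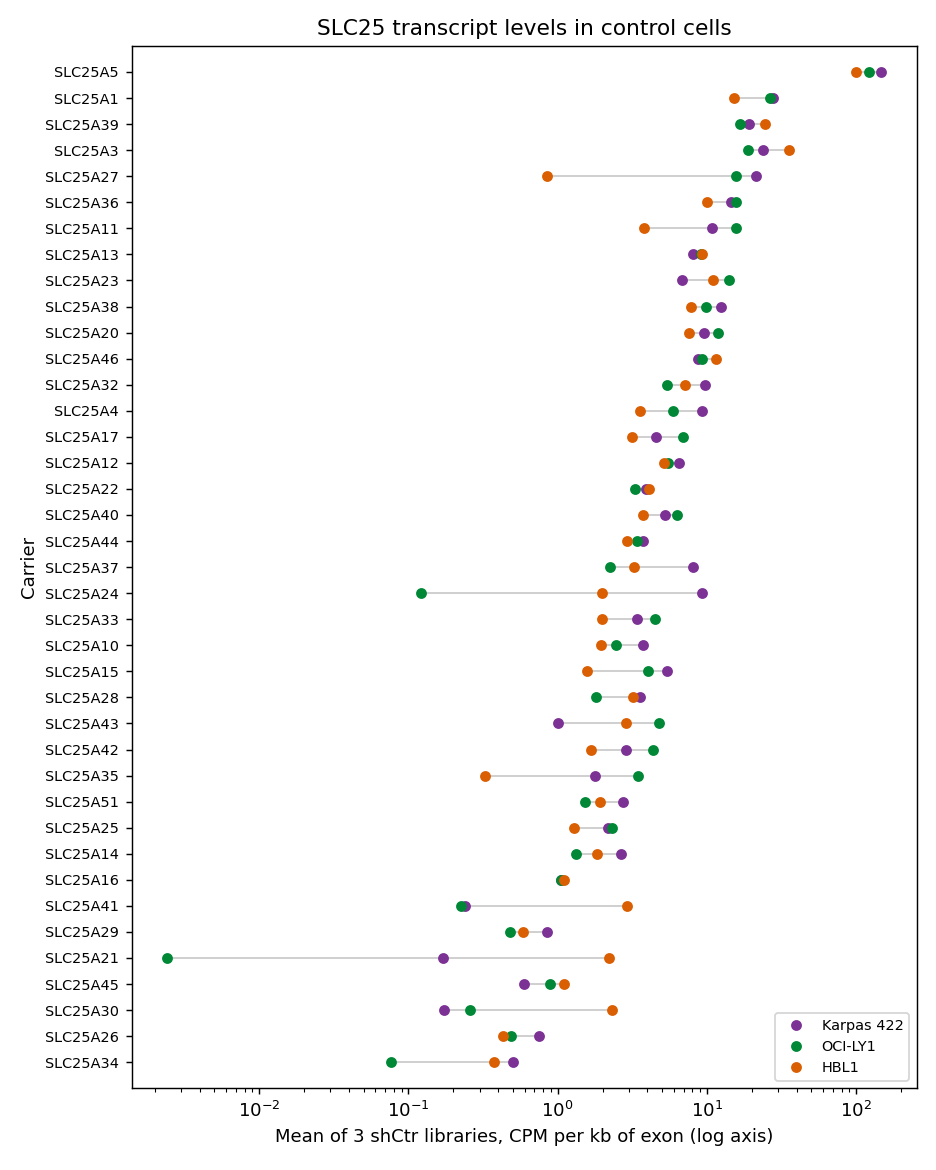
Carrier levels in shCtr cells of the 3 lines. Points give CPM per kb of exon (log axis) for expressed members, ordered by level, 1 colour per line. SLC25A5 lies above all others in each line, and SLC25A24, SLC25A27, SLC25A30, SLC25A21 and SLC25A41 show the widest gaps between lines.

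Several carriers differed widely between the lines in control cells. In a limma fit of the 9 control libraries (12607 genes), fold above 1.5 with adjusted p under 0.05 was reached by 21 of 40 carriers between HBL1 and Karpas422, by 22 between HBL1 and OCI-LY1 and by 15 between Karpas422 and OCI-LY1. The same rule called 54.6%, 54.6% and 50.8% of all genes. The 4 carriers below were picked for their wide ranges in these same libraries, so their separation and p-values follow from that choice. How many of all genes were as well separated was not counted. SLC25A24, an ATP-magnesium/phosphate carrier, was at 65.8, 73.0 and 47.4 CPM in Karpas422, at 0.755, 1.04 and 0.667 CPM in OCI-LY1 and at 11.8, 12.9 and 15.5 CPM in HBL1. SLC25A27 followed another order, with 65.7, 70.7 and 75.1 CPM in Karpas422, 33.9, 48.1 and 72.8 CPM in OCI-LY1 and 1.88, 2.48 and 3.98 CPM in HBL1. SLC25A30, a further relative of the uncoupling proteins, was high in HBL1 (17.2, 17.0 and 13.4 CPM), and Karpas422 (1.06, 1.44 and 1.02 CPM) and OCI-LY1 (1.58, 1.62 and 2.08 CPM) did not exceed 2.08 CPM. SLC25A41, another ATP-magnesium/phosphate carrier, was at 5.46, 5.32 and 3.61 CPM in HBL1 and at most 0.587 CPM in the other two lines. The groups of these 4 carriers did not overlap between HBL1 and Karpas422, with log2 differences (HBL1 minus Karpas422) of -2.19 for SLC25A24 (adjusted p = 4.23e-06), -4.68 for SLC25A27 (adjusted p = 1.45e-07), 3.65 for SLC25A30 (adjusted p = 3.80e-08) and 3.36 for SLC25A41 (adjusted p = 1.89e-06).

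After SIRT3 knockdown more carriers fell than rose, but in numbers close to those of all genes. Line and shRNA were fitted together over the 27 libraries on log2(CPM + 0.1), with 13076 genes tested, and a gene was called at a fold above 1.5 and adjusted p under 0.05. With shSIRT3-1, SLC25A36, SLC25A43, SLC25A30 and SLC25A42 fell (4 of 40, where 9.09% of all genes fell) and SLC25A44 and SLC25A22 rose (2 of 40, where 3.92% rose). With shSIRT3-2, SLC25A27, SLC25A45, SLC25A15, SLC25A30 and SLC25A42 fell (5 of 40, against 10.2%) and SLC25A10 rose (1 of 40, against 3.29%). SLC25A30 and SLC25A42 fell with both hairpins (2 of 40, against 3.98%) and 0 rose with both (against 1.10%). Both hairpins were compared with the same control libraries, so their calls are not independent. The median log2 fold change of the 40 carriers was -0.13 with shSIRT3-1 (-0.05 over all genes) and -0.07 with shSIRT3-2 (-0.03 over all genes).

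At adjusted p under 0.05 without a fold limit, 10 carriers were lower and 2 higher with shSIRT3-1, where 22.3% and 15.6% of all genes were. With shSIRT3-2 the counts were 12 lower and 6 higher, against 21.7% and 16.3%. SLC25A26, SLC25A36, SLC25A46, SLC25A30 and SLC25A42 were lower with both (5 of 40, against 10.5%), and SLC25A22 was higher with both (1 of 40, against 7.65%). The share of lower genes among all calls depended on the scaling. It was 69.9% with shSIRT3-1 and 75.6% with shSIRT3-2 on the deposited scale, 54.4% and 59.2% after quantile normalization and 65.3% and 71.4% after median-ratio scaling.

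**Figure D2:**
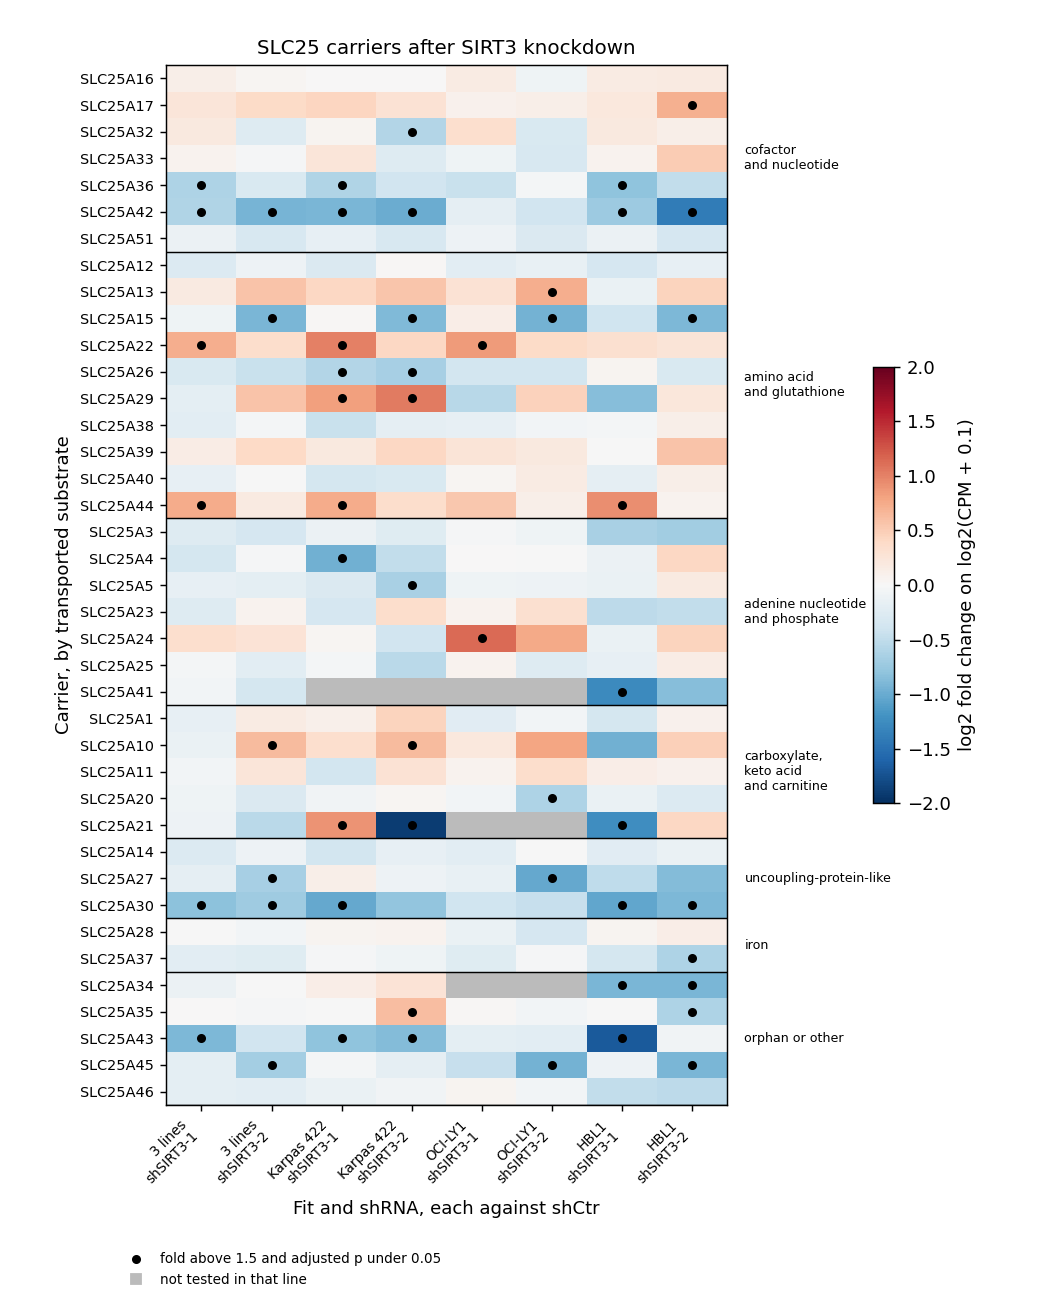
Log2 fold change of tested carriers against shCtr, for both hairpins over the 3 lines together and in each line. Blue is lower and red higher than control, marks show calls at fold above 1.5 and adjusted p under 0.05, and grey cells were not tested in that line. SLC25A42 and SLC25A30 are blue in all 8 columns. SLC25A36 and SLC25A51 were also lower in all 8, in part by small amounts.

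SLC25A42, the carrier that brings coenzyme A into the matrix in exchange for adenine nucleotides, was lower than the mean of its own line's controls in all 18 libraries with a SIRT3 hairpin. Such counts of libraries, here and below, were not set against those of all genes. The libraries of a line share 1 control mean, so they are not independent. In Karpas422 SLC25A42 was at 13.1, 15.6 and 11.3 CPM in controls, 7.67, 8.33 and 5.29 CPM with shSIRT3-1 and 6.93, 7.16 and 5.84 CPM with shSIRT3-2. HBL1 controls had 7.07, 7.17 and 9.23 CPM, shSIRT3-1 libraries 4.25, 4.51 and 5.22 CPM and shSIRT3-2 libraries 2.72, 2.51 and 3.48 CPM. In OCI-LY1 the values were 18.1, 24.7 and 18.3 CPM, then 18.4, 16.02 and 19.2 CPM, then 15.8, 14.2 and 16.6 CPM. Knockdown and control groups did not overlap in Karpas422 and HBL1, nor in OCI-LY1 with shSIRT3-2, but did overlap in OCI-LY1 with shSIRT3-1. The 3 lines together gave a log2 fold change of -0.61 (SE 0.13, adjusted p = 8.90e-04) with shSIRT3-1 and -0.92 (SE 0.13, adjusted p = 1.04e-05) with shSIRT3-2. SLC25A42 was called with both hairpins in Karpas422 (-0.91 and -0.99) and HBL1 (-0.73 and -1.40) and with neither in OCI-LY1 (-0.18 and -0.38). Both double calls were lost without replicate 1, where 0 carriers were called with both hairpins in either line. In HBL1 the same held without replicate 2. The shSIRT3-2 call held in all 18 alternatives, whereas the shSIRT3-1 call fell under the 1.5-fold limit in 6, among them without Karpas422 (-0.45) and without HBL1 (-0.54). SLC25A42 lies at chr19:19174803-19223839 (hg19, plus strand), and its promoter above is the one with 6 CCAAT matches.

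For SLC25A30 too, all 18 knockdown libraries lay under the control mean of their line. Its HBL1 levels were 17.2, 17.0 and 13.4 CPM in controls, 8.15, 9.49 and 5.66 CPM with shSIRT3-1 and 7.88, 8.46 and 8.89 CPM with shSIRT3-2. Karpas422, with far less of it, had 1.06, 1.44 and 1.02 CPM, then 0.386, 0.529 and 0.668 CPM, then 0.596, 0.455 and 0.898 CPM. OCI-LY1 had 1.58, 1.62 and 2.08 CPM, then 1.35, 1.18 and 1.40 CPM, then 1.21, 1.33 and 1.19 CPM. Every knockdown group lay wholly below its control group. The 3-line log2 fold change was -0.82 (SE 0.13, adjusted p = 3.73e-05) with shSIRT3-1 and -0.72 (SE 0.13, adjusted p = 1.84e-04) with shSIRT3-2. HBL1 called it with both hairpins (-1.04 and -0.90) and Karpas422 with shSIRT3-1 (-1.03). The HBL1 calls were lost without replicate 1, where HBL1 called 0 carriers with either hairpin. Without replicate 2, HBL1 called 0 carriers with both. With shSIRT3-2 the Karpas422 value was -0.79 (adjusted p = 5.09e-02, and 4.25e-02 with same-numbered libraries treated as pairs). A pseudocount of 1 in place of 0.1 brought both 3-line values under the fold limit (-0.57 and -0.51), as did quantile normalization for shSIRT3-2 (-0.57). Karpas422 lost its shSIRT3-1 call without shSIRT3-1 replicate 1 (-0.86, adjusted p = 6.85e-02).

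Of the other uncoupling-protein-like carriers, SLC25A27 fell with shSIRT3-2 over the 3 lines (log2 fold change -0.66, SE 0.19, adjusted p = 7.71e-03). OCI-LY1 had control values of 33.9, 48.1 and 72.8 CPM and shSIRT3-2 values of 24.7, 21.3 and 26.9 CPM (-1.02, adjusted p = 2.70e-02). HBL1 went from 1.88, 2.48 and 3.98 CPM to 1.16, 1.06 and 2.28 CPM, which overlapped (-0.86, adjusted p = 0.146), and was called with same-numbered libraries treated as pairs (adjusted p = 5.12e-03). In Karpas422 the value was -0.11 (adjusted p = 0.639). The 3-line value without OCI-LY1 was -0.48 (adjusted p = 0.132), without HBL1 -0.56 and without replicate 2 of all groups -0.56 (adjusted p = 0.137), each short of the call. SLC25A14 was lower than control in 17 of 18 libraries by small amounts (-0.27 with shSIRT3-1, adjusted p = 7.50e-03, and -0.10 with shSIRT3-2, adjusted p = 0.300), short of the 1.5-fold limit.

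Among the 8 tested carriers of cofactors and nucleotides, SLC25A36, a pyrimidine nucleotide carrier, fell with shSIRT3-1. Karpas422 had 148.3, 153.3 and 148.0 CPM in controls, 107.9, 100.1 and 88.8 CPM with shSIRT3-1 and 123.7, 107.5 and 114.7 CPM with shSIRT3-2. HBL1 had 106.2, 109.9 and 96.2 CPM, then 59.7, 56.5 and 63.1 CPM, then 76.7, 75.5 and 70.3 CPM. In OCI-LY1 it was at 145.9, 167.3 and 173.1 CPM, then 113.7, 109.5 and 134.2 CPM, then 168.1, 107.4 and 214.9 CPM. Control and knockdown groups were separate in Karpas422 and HBL1 and overlapped in OCI-LY1 with shSIRT3-2. Log2 fold changes over the 3 lines were -0.62 with shSIRT3-1 (SE 0.093, adjusted p = 1.53e-05) and -0.30 with shSIRT3-2 (adjusted p = 1.24e-02), the latter under the fold limit. The shSIRT3-1 value went under that limit after quantile normalization (-0.57), without replicate 2 of all groups (-0.56) and without HBL1 (-0.52).

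SLC25A51, which imports NAD, the cosubstrate of SIRT3, lay under the control mean of its line in 18 of 18 libraries with a SIRT3 hairpin, but by less than 1.5-fold. SLC25A51 was named for that shared direction after its values were seen. Controls were at 8.55, 9.30 and 10.2 CPM in Karpas422, 5.56, 5.28 and 4.76 CPM in OCI-LY1 and 6.25, 6.23 and 7.11 CPM in HBL1. Libraries with shSIRT3-2 were at 6.91, 7.85 and 7.598 CPM, 4.16, 4.29 and 4.23 CPM and 5.05, 4.94 and 5.39 CPM, each group wholly under its controls. The log2 fold change was -0.32 with shSIRT3-2 (SE 0.062, adjusted p = 2.89e-04) and -0.12 with shSIRT3-1 (adjusted p = 0.113). Its near copy SLC25A52 did not exceed 0.113 CPM. SLC25A17, a peroxisomal carrier of coenzyme A and related cofactors, was higher with shSIRT3-2 (0.38, adjusted p = 7.20e-03) and was called in HBL1, where it went from 13.96, 13.2 and 10.46 CPM to 21.9, 21.3 and 18.7 CPM (0.72, adjusted p = 8.17e-03). SLC25A32, which carries folate and flavin cofactor, was lower with shSIRT3-2 in Karpas422 (-0.59, adjusted p = 2.96e-03). DCAF13, on the opposite strand, shares 11.1% of the exon bases of SLC25A32. Over all libraries DCAF13 averaged 43.97 CPM and SLC25A32 26.87 CPM, and the part of shared reads was not tested. The pyrimidine carrier SLC25A33 was called in no comparison with control.

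**Figure D3:**
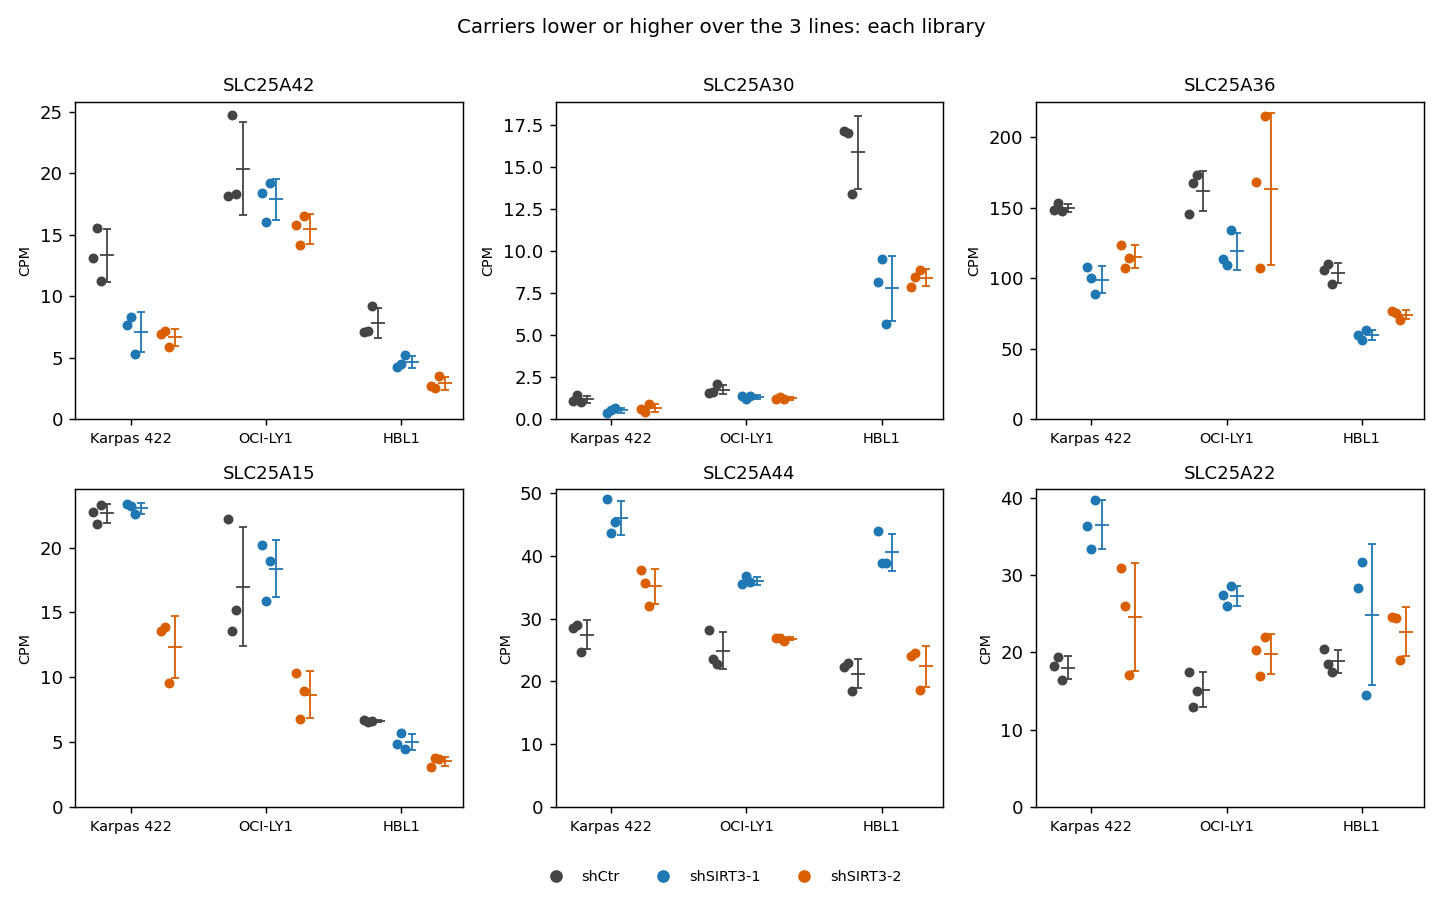
CPM of the carriers with the clearest changes in each library. Each panel is 1 gene, points are the 3 libraries of a group, and the bar and whiskers are the mean and SD. SLC25A42 and SLC25A30 are lower with both hairpins in Karpas422 and HBL1, while SLC25A15 is low with shSIRT3-2 and SLC25A44 high with shSIRT3-1.

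Of the 10 tested carriers of amino acids and glutathione, SLC25A15 and SLC25A29 were called between the hairpins over the 3 lines. SLC25A15, the ornithine/citrulline exchanger of the urea cycle, fell with shSIRT3-2 in all 3 lines. Karpas422 had 22.7, 21.9 and 23.3 CPM in controls, 23.3, 23.2 and 22.6 CPM with shSIRT3-1 and 13.6, 13.9 and 9.59 CPM with shSIRT3-2. OCI-LY1 had 22.2, 13.6 and 15.2 CPM, then 20.2, 15.9 and 18.95 CPM, then 10.3, 6.76 and 8.93 CPM. HBL1 had 6.71, 6.59 and 6.60 CPM, then 4.83, 5.70 and 4.49 CPM, then 3.08, 3.75 and 3.71 CPM. All shSIRT3-2 groups lay wholly below both other groups of their line. The 3-line log2 fold change was -0.91 (SE 0.11, adjusted p = 9.45e-07) with shSIRT3-2 and -0.08 (adjusted p = 0.586) with shSIRT3-1, and the shSIRT3-2 call held in all 18 alternatives. The hairpins themselves differed by -0.83 (shSIRT3-2 minus shSIRT3-1, adjusted p = 3.23e-06), although shSIRT3-2 left more SIRT3 RNA. Within lines SLC25A15 was called with shSIRT3-2 in Karpas422 (-0.89), OCI-LY1 (-0.95) and HBL1 (-0.90). In OCI-LY1 that call was lost without shCtr replicate 3, shSIRT3-2 replicate 2 or shSIRT3-2 replicate 3 (adjusted p = 6.64e-02, 9.41e-02 and 6.42e-02), with the value between -1.01 and -0.78.

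SLC25A44, a carrier of branched-chain amino acids, rose with shSIRT3-1. Its controls were at 28.5, 29.0 and 24.8 CPM in Karpas422, 28.2, 23.6 and 22.8 CPM in OCI-LY1 and 22.3, 22.9 and 18.6 CPM in HBL1. With shSIRT3-1 the values were 49.0, 43.7 and 45.3 CPM, 35.6, 36.7 and 35.8 CPM and 43.97, 38.9 and 38.8 CPM. With shSIRT3-2 they were 37.7, 35.6 and 32.1 CPM, 26.9, 26.9 and 26.5 CPM and 24.0, 24.6 and 18.6 CPM. Every shSIRT3-1 library exceeded every control of its line, and with shSIRT3-2 this held in Karpas422 alone. Log2 fold changes were 0.74 with shSIRT3-1 (SE 0.078, adjusted p = 1.34e-07) and 0.18 with shSIRT3-2 (adjusted p = 6.96e-02), and the hairpins differed by -0.56 (shSIRT3-2 minus shSIRT3-1, adjusted p = 7.11e-06), just under the 1.5-fold limit. The shSIRT3-1 call held in all 18 alternatives.

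SLC25A22, a glutamate carrier, rose with shSIRT3-1 as well. Karpas422 went from 18.2, 19.4 and 16.4 CPM to 36.3, 33.4 and 39.7 CPM, and shSIRT3-2 gave 30.8, 25.9 and 17.1 CPM. OCI-LY1 went from 17.4, 12.9 and 15.04 CPM to 27.4, 25.9 and 28.6 CPM, with 20.3, 17.0 and 22.0 CPM for shSIRT3-2. HBL1 controls at 20.4, 18.6 and 17.5 CPM overlapped shSIRT3-1 libraries at 28.3, 31.7 and 14.5 CPM and shSIRT3-2 libraries at 24.6, 24.5 and 19.02 CPM. The lowest of those was HBL1 shSIRT3-1 replicate 3, described below. The log2 fold change was 0.73 with shSIRT3-1 (SE 0.13, adjusted p = 1.21e-04) and 0.35 with shSIRT3-2 (adjusted p = 3.73e-02). Without that library the first was 0.86 (adjusted p = 2.72e-07), and the call held in all 18 alternatives.

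SLC25A13, a calcium-regulated aspartate/glutamate exchanger of the malate-aspartate shuttle, was above its control mean in 17 of 18 libraries. With shSIRT3-2 the log2 fold change of 0.58 (SE 0.10, adjusted p = 1.23e-04) corresponded to 1.49-fold, just under the limit, and it passed the limit after median-ratio scaling (0.61), without replicate 1 of all groups (0.68), without Karpas422 (0.59) and without HBL1 (0.65). In OCI-LY1 alone SLC25A13 was called with shSIRT3-2, from 44.8, 30.2 and 26.6 CPM to 53.8, 59.7 and 51.5 CPM (0.73, adjusted p = 3.51e-02). The OCI-LY1 call was lost in 10 of 20 alternatives, among them leaving out shCtr replicate 2 or 3, shSIRT3-1 replicate 1 or 3 or any 1 shSIRT3-2 library. Its paralog SLC25A12 was lower with shSIRT3-1 (-0.28, adjusted p = 3.32e-03) by less than 1.5-fold. The shuttle enzyme GOT1, cytosolic aspartate aminotransferase, fell with both hairpins over the 3 lines (-1.09 and -1.29). It was the 1 called gene of the 4 shuttle enzymes (9.09% and 10.2% of all genes fell). In Karpas422 GOT1 went from 113.4, 149.8 and 102.8 CPM to 51.8, 47.5 and 38.6 CPM and to 36.99, 39.04 and 29.7 CPM. OCI-LY1 called GOT1 with neither hairpin (-0.45, adjusted p = 0.285, and -0.74, adjusted p = 9.72e-02), and the lines differed (interaction adjusted p = 1.71e-02).

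SLC25A26, the S-adenosylmethionine carrier, was lower with both hairpins by less than 1.5-fold over the 3 lines (-0.30, adjusted p = 2.29e-02, and -0.45, adjusted p = 1.33e-03). Karpas422 passed the limit, with 16.6, 17.1 and 15.6 CPM in controls, 12.4, 11.01 and 9.55 CPM with shSIRT3-1 and 12.2, 10.4 and 8.66 CPM with shSIRT3-2. The groups did not overlap, and the log2 fold changes were -0.59 (adjusted p = 1.14e-02) and -0.67 (adjusted p = 6.78e-03). The shSIRT3-1 value lies at the limit and lost the call in 10 of 20 alternatives, and the shSIRT3-2 call was lost without shSIRT3-2 replicate 3 (-0.54). LRIG1, on the opposite strand, shares 12.2% of the exon bases of SLC25A26, and whether the counting used strand is not given in the sources used here. LRIG1 averaged 27.2, 19.8 and 13.6 CPM in the same 3 Karpas422 groups, so part of a change in either gene could be counted in the other, which was not tested.

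SLC25A29, a carrier of basic amino acids, rose with both hairpins in Karpas422. It went from 5.05, 6.14 and 7.76 CPM to 9.07, 9.31 and 15.9 CPM with shSIRT3-1 (log2 fold change 0.82, adjusted p = 2.81e-02) and to 15.8, 12.9 and 10.45 CPM with shSIRT3-2 (1.04, adjusted p = 1.08e-02). The shSIRT3-1 call was lost without shCtr replicate 1, shCtr replicate 2 or shSIRT3-1 replicate 3 (adjusted p = 9.50e-02, 7.52e-02 and 8.59e-02, with values from 0.56 to 0.81). In HBL1 the values were 3.45, 3.43 and 6.29 CPM, then 1.75, 2.29 and 2.97 CPM, then 4.52, 3.40 and 7.72 CPM, and neither hairpin was called (-0.85, adjusted p = 8.05e-02, and 0.22, adjusted p = 0.654). With same-numbered HBL1 libraries treated as pairs the first was called (adjusted p = 7.33e-03). The interaction test did not separate the lines for SLC25A29 (adjusted p = 5.78e-02). Over the 3 lines the hairpins differed by 0.77 (shSIRT3-2 minus shSIRT3-1, adjusted p = 1.32e-02). Leaving out replicate 1 or replicate 2 of all groups, OCI-LY1 or HBL1 ended that call (adjusted p = 0.101, 0.118, 0.1002 and 0.104).

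The rest of the amino acid and glutathione class moved little. SLC25A39, the glutathione carrier, was above its control mean in 17 of 18 libraries (0.40 with shSIRT3-2, adjusted p = 3.88e-03), SLC25A38, which carries glycine for haem synthesis, was lower with shSIRT3-1 (-0.22, adjusted p = 4.44e-03), and SLC25A40, a relative of SLC25A39, passed the adjusted p in neither contrast (adjusted p = 8.13e-02 and 0.931). None of these 3 reached 1.5-fold over the 3 lines. In the direct contrast of the hairpins, 1 carrier of 40 was lower with shSIRT3-2 (SLC25A15, against 6.05% of all genes) and 2 were higher (SLC25A29 and SLC25A10, against 5.27%).

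Among carriers of carboxylates, SLC25A10, the dicarboxylate carrier for malate and succinate, rose with shSIRT3-2. Karpas422 ranged from 6.94 to 12 CPM in controls and had 17.1, 15.6 and 12.6 CPM with shSIRT3-2. OCI-LY1 had 8.67, 5.57 and 5.06 CPM, then 10.4, 10.7 and 11.5 CPM. HBL1 had 7.11, 5.55 and 2.61 CPM, then 6.75, 7.03 and 6.04 CPM, which overlapped. With same-numbered libraries treated as pairs, SLC25A10 was also called higher in OCI-LY1 with shSIRT3-2 (0.79, adjusted p = 2.88e-02, and 5.11e-02 unpaired) and lower in HBL1 with shSIRT3-1 (-0.97, adjusted p = 4.15e-02, and 0.159 unpaired). The 3-line log2 fold change was 0.63 (SE 0.23, adjusted p = 3.41e-02), and the call was lost in 8 of 18 alternatives, among them leaving out any 1 replicate number and OCI-LY1 shCtr replicate 2 (adjusted p = 6.23e-02). The direct difference between hairpins (0.77, adjusted p = 1.35e-02) went under the fold limit without HBL1 shSIRT3-1 replicate 3 (0.54). The citrate carrier SLC25A1, the oxoglutarate carrier SLC25A11 and the carnitine/acylcarnitine carrier SLC25A20 were not called over the 3 lines, with log2 fold changes between -0.28 and 0.24. SLC25A20 was called lower in OCI-LY1 with shSIRT3-2, from 23.6, 23.7 and 20.5 CPM to 16.4, 13.1 and 14.5 CPM (-0.62, adjusted p = 2.97e-02). That call was lost in 7 of 20 alternatives, among them leaving out shCtr replicate 2 or 3 or shSIRT3-2 replicate 2 or 3 (adjusted p from 6.07e-02 to 0.110).

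Of the 7 tested carriers of adenine nucleotides and phosphate, 0 were called over the 3 lines with either hairpin. In a class of 7 that count does not stand apart from the shares of all genes (9.09% lower and 3.92% higher with shSIRT3-1, 10.2% and 3.29% with shSIRT3-2). SLC25A3, the phosphate carrier, was lower with shSIRT3-2 by less than 1.5-fold (-0.34, adjusted p = 4.15e-02). SLC25A5 was called in Karpas422 with shSIRT3-2, from 232.2, 215.4 and 237.5 CPM to 161.4, 159.0 and 119.0 CPM (-0.65, adjusted p = 6.00e-03), and this went under the fold limit without shSIRT3-2 replicate 3 (-0.51). The iron carriers SLC25A28 and SLC25A37 were not called over the 3 lines. SLC25A37 (mitoferrin-1) fell in HBL1 with shSIRT3-2 (-0.62, adjusted p = 1.19e-02), a call lost without shCtr replicate 3 (-0.51) or shSIRT3-2 replicate 1 (-0.56).

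Among the 5 tested carriers grouped as orphan or other, SLC25A45 fell with shSIRT3-2 over the 3 lines (log2 fold change -0.68, SE 0.14, adjusted p = 5.18e-04). OCI-LY1 had 7.21, 8.15 and 5.62 CPM in controls and 4.06, 2.50 and 4.34 CPM with shSIRT3-2, and HBL1 had 7.70, 8.41 and 9.86 CPM and 4.05, 4.30 and 5.28 CPM. Karpas422 values overlapped, at 4.40, 5.04 and 4.61 CPM and 4.45, 3.68 and 4.31 CPM. The 3-line call was lost without OCI-LY1 (-0.55), without HBL1 (-0.56) and without replicate 2 of all groups (-0.51, adjusted p = 5.03e-02). SLC25A46, an outer membrane protein of mitochondrial dynamics, was lower by less than 1.5-fold with both hairpins over the 3 lines (-0.20, adjusted p = 2.92e-02, and -0.22, adjusted p = 1.67e-02). Its HBL1 values were 97.0, 101.2 and 86.2 CPM in controls, 68.1, 71.4 and 61.5 CPM with shSIRT3-1 and 65.5, 67.2 and 65.6 CPM with shSIRT3-2, wholly below the controls (-0.50 and -0.52). The values were 0.05 and -0.05 in OCI-LY1 and -0.14 and -0.08 in Karpas422, none with an adjusted p under 0.05, and the lines differed (interaction adjusted p = 4.62e-03). Without HBL1 shSIRT3-1 replicate 3 the 3-line shSIRT3-1 value of SLC25A46 was -0.165 (adjusted p = 5.70e-02). SLC25A34 was called lower with both hairpins in HBL1, at 1.24, 1.01 and 1.49 CPM, then 0.681, 0.575 and 0.576 CPM, then 0.488, 0.441 and 1.01 CPM (-0.91, adjusted p = 3.61e-02, and -0.91, adjusted p = 3.96e-02). It lost those calls in 13 of 19 and 14 of 19 alternatives, and leaving out any 1 of the shCtr libraries ended both.

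Each line was also fitted alone. In Karpas422 (11235 genes, 39 carriers tested), shSIRT3-1 called 6 carriers lower and 4 higher, where 11.5% and 4.45% of all genes were. With shSIRT3-2 in Karpas422 it was 7 lower and 3 higher (9.44% and 5.55% of all genes), and with both hairpins 3 lower and 1 higher (4.79% and 1.85%). OCI-LY1 (11205 genes, 37 carriers) had 0 lower and 2 higher with shSIRT3-1 (2.45% and 2.04%), 4 lower and 1 higher with shSIRT3-2 (4.26% and 2.15%), and 0 in either direction with both (0.678% and 0.571%). HBL1 (11862 genes, 40 carriers) had 7 lower and 1 higher with shSIRT3-1 (18.8% and 8.83%), 7 lower and 1 higher with shSIRT3-2 (16.0% and 7.51%), and 3 lower and 0 higher with both (7.87% and 2.47%). In HBL1 the share of lower genes among all calls went from 68.0% with either hairpin to 49.2% and 49.9% after quantile normalization and to 56.2% and 52.3% after median-ratio scaling. Quantile normalization raised the HBL1 median of all genes by 0.14 for shSIRT3-1, and median-ratio scaling raised it by 0.12 for shSIRT3-2. The Karpas422 share of lower calls was 72.1% for shSIRT3-1 (53.4% and 60.2% under those scalings) and 63.0% for shSIRT3-2 (54.7% and 58.0%). With same-numbered libraries treated as pairs, OCI-LY1 had 1 carrier higher with both hairpins, SLC25A24. Of the 40 carriers, 16 were called in no comparison of a hairpin with control, over the 3 lines or within one. Among them SLC25A11 and SLC25A23 were higher with shSIRT3-2 than with shSIRT3-1 in Karpas422 (0.65, adjusted p = 2.46e-03, and 0.69, adjusted p = 2.93e-02).

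HBL1 shSIRT3-1 replicate 3 stood apart. The summed level of all 48 carriers was 798.0 CPM there, against 1110.1 and 1189.2 CPM in the other two libraries of its group and 1264.8 ± 32.9 CPM (SD, n = 3) in HBL1 controls. Without it HBL1 still had 8 carriers called with shSIRT3-1, but SLC25A34 and SLC25A21 were no longer among them (adjusted p = 5.22e-02 and 5.64e-02). In Karpas422 the sum was 1497.3 ± 51.5 CPM (SD, n = 3) in controls, 1400.9 ± 44.6 with shSIRT3-1 and 1363.7 ± 104 with shSIRT3-2, and in OCI-LY1 it was 1313.1 ± 75.7, 1281.2 ± 117 and 1284.4 ± 87.8 CPM.

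The response differed between lines for 18 of 40 carriers in the interaction test (adjusted p under 0.05), where 41.8% of all genes passed. SLC25A21, the oxodicarboxylate carrier of lysine and tryptophan breakdown, had the smallest p (adjusted p = 7.85e-06). In Karpas422 it was at 0.703, 0.850 and 0.882 CPM in controls, 1.13, 1.66 and 2.12 CPM with shSIRT3-1 and 0.172, 0.167 and 0.102 CPM with shSIRT3-2. HBL1 had 13.4, 12.3 and 6.11 CPM, then 6.14, 5.33 and 2.22 CPM, then 14.7, 14.3 and 11.5 CPM. OCI-LY1 had at most 0.0453 CPM. The hairpins thus moved SLC25A21 in opposite directions within Karpas422, with log2 fold changes of 0.89 (SE 0.26, adjusted p = 2.38e-02) and -1.89 (SE 0.26, adjusted p = 8.69e-04). The second held in all 14 alternatives run, and the first was lost without shCtr replicate 1 or 2 (adjusted p = 7.83e-02 and 5.46e-02). In HBL1 shSIRT3-1 lowered it by -1.24 on the log2 scale (adjusted p = 3.67e-02), a call lost without shCtr replicate 1, without shCtr replicate 2, without shSIRT3-1 replicate 3 and in other alternatives, 10 of 20 in all. PAX9, on the opposite strand, shares 30.3% of the exon bases of SLC25A21 and averaged 38.9, 14.1 and 40.5 CPM in the 3 HBL1 groups but at most 0.0675 CPM in those of Karpas422. Reads of PAX9 and SLC25A21 cannot be told apart over the shared bases without strand.

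SLC25A4, the ADP/ATP carrier of heart and muscle, fell in Karpas422 alone (interaction adjusted p = 6.81e-05). Karpas422 had 43.3, 47.3 and 43.8 CPM in controls, 22.5, 24.1 and 22.2 CPM with shSIRT3-1 and 33.7, 31.0 and 31.2 CPM with shSIRT3-2. OCI-LY1 had 32.0, 28.6 and 24.8 CPM, then 31.0, 25.7 and 29.3 CPM, then 29.6, 25.9 and 29.2 CPM. HBL1 had 19.5, 17.6 and 14.6 CPM, then 15.97, 15.9 and 15.3 CPM, then 23.6, 22.1 and 22.6 CPM. The Karpas422 groups did not overlap, the OCI-LY1 groups did, and in HBL1 the shSIRT3-2 libraries lay above the controls. In Karpas422 the log2 fold change was -0.96 with shSIRT3-1 (SE 0.079, adjusted p = 9.35e-05) and -0.49 with shSIRT3-2 (adjusted p = 2.16e-03), and in HBL1 it was 0.41 with shSIRT3-2 (adjusted p = 2.49e-02). The Karpas422 shSIRT3-1 call held in all 20 alternatives.

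SLC25A35, of the same orphan group, moved in opposite directions with shSIRT3-2 in Karpas422 and HBL1 (interaction adjusted p = 1.80e-04). Karpas422 went from 6.98, 7.40 and 6.70 CPM to 10.6, 9.69 and 12.2 CPM (log2 fold change 0.61, adjusted p = 4.16e-03) and HBL1 from 1.26, 1.32 and 1.29 CPM to 0.713, 0.848 and 0.873 CPM (-0.61, adjusted p = 2.86e-02). OCI-LY1 was at 15.6, 12.4 and 12.9 CPM and 12.97, 13.4 and 12.8 CPM. The Karpas422 call went under the fold limit without shCtr replicate 3 (0.58) or shSIRT3-2 replicate 3 (0.52). The HBL1 call held in 8 of 20 alternatives and was lost without shCtr replicate 1, 2 or 3, and after quantile normalization the HBL1 value was -0.17 (adjusted p = 0.480). RANGRF, on the opposite strand, shares 28.7% of the exon bases of SLC25A35 and averaged 2.40, 2.54 and 2.64 CPM in Karpas422 and 0.926, 0.729 and 0.923 CPM in HBL1.

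SLC25A43, likewise in the orphan group, fell with shSIRT3-1 in HBL1, from 7.66, 8.21 and 8.46 CPM to 2.87, 3.89 and 1.30 CPM, while shSIRT3-2 gave 7.55, 8.15 and 7.42 CPM. The log2 fold changes in HBL1 were -1.69 (SE 0.32, adjusted p = 4.01e-03) and -0.07 (adjusted p = 0.878), and without shSIRT3-1 replicate 3 the first was -1.25 (adjusted p = 2.70e-04). Karpas422 fell with both hairpins, from 2.07, 3.37 and 3.15 CPM to 1.39, 1.81 and 1.49 CPM (-0.81, adjusted p = 1.38e-02) and to 1.61, 1.52 and 1.34 CPM (-0.87, adjusted p = 1.05e-02). The first of these calls was lost without shCtr replicate 2 (adjusted p = 5.17e-02) or shSIRT3-1 replicate 1 (adjusted p = 5.47e-02). OCI-LY1 overlapped, at 14.0, 12.8 and 13.9 CPM, then 12.9, 9.68 and 13.4 CPM, then 12.4, 10.4 and 12.4 CPM. Over the 3 lines the shSIRT3-1 value was -0.90 (SE 0.22, adjusted p = 1.96e-03) and fell to -0.50 without HBL1, which ended the call. The lines differed for SLC25A43 (interaction adjusted p = 1.92e-03).

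**Figure D4:**
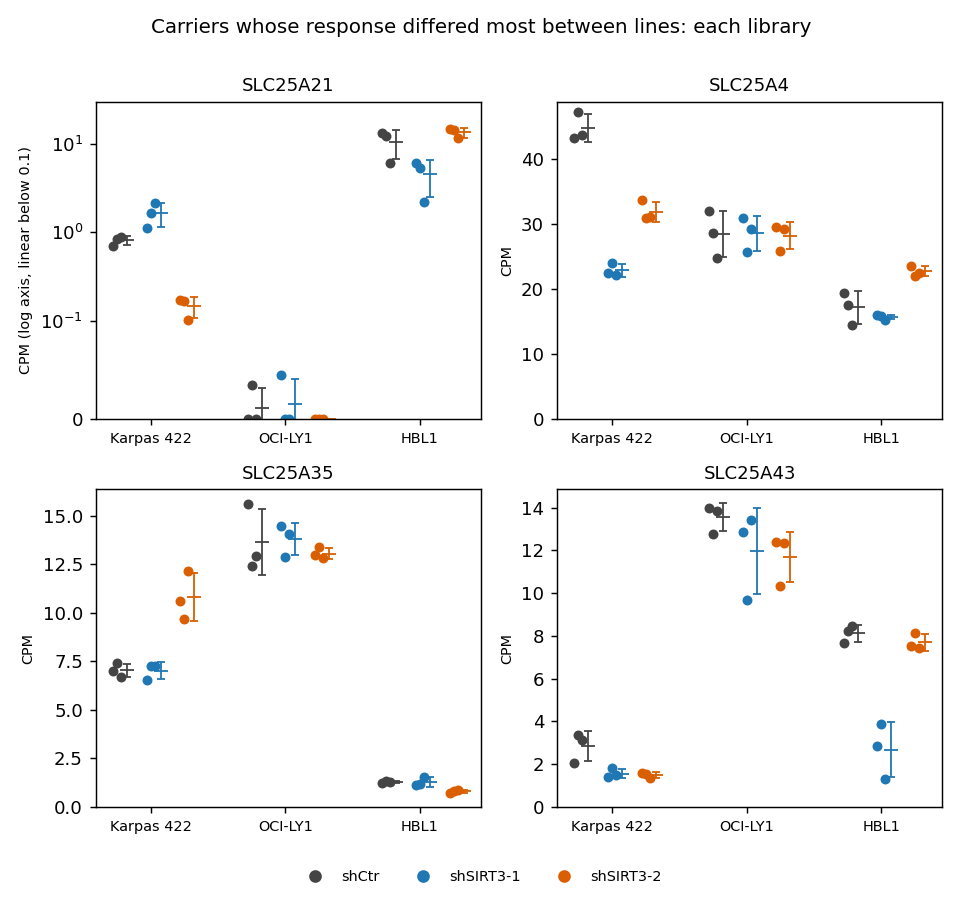
CPM in each library for SLC25A21, SLC25A4, SLC25A35 and SLC25A43, whose response differed most between lines. Points are libraries, the bar and whiskers the mean and SD (n = 3), and the SLC25A21 axis is logarithmic above 0.1 CPM. SLC25A4 drops in Karpas422 alone, and SLC25A43 drops with shSIRT3-1 in HBL1.

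Other genes of mitochondrial transport were read in the same 3-line fit, where 9.09% of all genes fell and 3.92% rose with shSIRT3-1 and 10.2% fell and 3.29% rose with shSIRT3-2. The lists are short and were not tested against these shares. Of 5 family members under other symbols 4 could be tested. UCP3 rose with shSIRT3-1 (log2 fold change 0.68), from 0.647 to 1.42 CPM on average in OCI-LY1, and without OCI-LY1 the value was 0.51 and under the fold limit. MTCH2, an insertase of the outer membrane, rose with shSIRT3-2 (0.62), in HBL1 from 47.8, 43.8 and 40.7 CPM to 81.0, 78.9 and 79.5 CPM, and went under the limit without HBL1 (0.51), without replicate 2 of all groups (0.52) or without OCI-LY1 shCtr replicate 2 (0.58). Of 15 other inner membrane transporters SFXN2, of the sideroflexin family, rose with both hairpins (0.88 and 0.72), in Karpas422 from 10.1, 7.07 and 9.73 CPM to 17.8, 16.9 and 19.7 CPM and to 19.3, 18.5 and 16.3 CPM, although the shSIRT3-2 value without Karpas422 was 0.57. Of the 3 porins, the outer membrane channels, VDAC2 and VDAC3 fell with shSIRT3-1 (-0.81 and -0.69) and 0 with shSIRT3-2. VDAC3 went under the limit without replicate 3 of all groups (-0.58) and without Karpas422 (-0.53). Of 8 genes for the insertion of carriers TOMM20 fell with shSIRT3-1 (-0.71, and -0.58 without replicate 3 of all groups), and 0 of 2 tested antisense neighbours of carriers were called.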

How the data were processed

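Total RNA was measured in 27 libraries. Per the study's methods, the authors prepared random-primed TruSeq libraries, sequenced pairs of 50-base reads, aligned them to hg19 with STAR (version not given in the sources used here) and assigned reads to RefSeq genes with Rsubread. The deposited values carry the name FPKM. Within a library, however, every gene's value was a whole multiple of 1 step (100% whole within 1e-06), so they were treated as CPM computed by the authors. Because CPM is relative to a library total, a change in abundant genes can shift all others. Whole reads were recovered from these steps for count tests.

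CPM were analysed as log2(CPM + 0.1) with limma 3.58.1 in R 4.3.3, with trended empirical Bayes moderation and Benjamini-Hochberg adjustment over all genes with at least 1 CPM in at least 3 libraries of the fit. A call needed fold above 1.5 and adjusted p under 0.05. Fold changes on this scale understate those of low genes. Fits were additive (line and shRNA), each line alone, line by shRNA interaction (F test) and control cells. The study's methods used an additive edgeR fit. edgeR 4.0.16 quasi-likelihood and likelihood-ratio tests on recovered reads, other scalings, pseudocounts and filters, a replicate block and left-out libraries or lines were the alternatives. Replicate numbers come from the labels, which do not say what they share. Deviations from group means correlated over 0.1 in 9 of 9 same-numbered pairs in OCI-LY1 and in HBL1, where blocked values are given if they change a call, and in 8 of 9 in Karpas422. On simulated data the additive fit (12914 genes) recovered 97% of 2-fold and 100% of 3-fold changes and called 0% of unchanged genes, and the HBL1 fit (11723 genes) recovered 94% and 100% and called 0.095%. The simulated counts had the same dispersion for all genes, no shared replicate deviation and no deviant library. Changes were placed only in genes averaging over 2 CPM, so these rates may not hold for the real libraries. The p-values measure the spread between these libraries, which may be technical.

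Carriers chosen by rule were those called with both shRNAs in a fit and the 3 with the smallest interaction p. The rule added the 5 with the largest mean change among those with both adjusted p under 0.05. It also took the 5 highest per kb and the 5 with the widest range between control cells. Of these, SLC25A1, SLC25A39 and SLC25A3 were given without values per library. Other carriers were named, many with values per library, after their values were seen. They were named because they were called or because their direction was shared by most libraries. The members and lists were chosen with earlier results of these data known. For 1 carrier that enters the counts, no values of its own are reported here. Exon lengths and hg19 positions came from GENCODE lifted to that build.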

Additional observations from a re-analysis of the deposited data

Results flagged for a closer look

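For 18 of 40 carriers the response to the hairpins differed between the 3 lines in the interaction F test. Adjusted p was 7.85e-06 for SLC25A21, 6.81e-05 for SLC25A4, 1.80e-04 for SLC25A35 and 1.92e-03 for SLC25A43, whose values stand in the report. It was 4.38e-03 for SLC25A41, 4.62e-03 for SLC25A46, 5.48e-03 for SLC25A33 and 7.32e-03 for SLC25A24. SLC25A41 fell in HBL1 with shSIRT3-1, from 5.46, 5.32 and 3.61 CPM to 2.41, 2.88 and 0.955 CPM, and was not tested in the other lines alone. With same-numbered libraries treated as pairs SLC25A41 was also called with shSIRT3-2 in HBL1 (-0.85, adjusted p = 3.90e-02, and 9.57e-02 unpaired). SLC25A24 was called higher in OCI-LY1 with shSIRT3-1, from 0.755, 1.04 and 0.667 CPM to 1.56, 2.75 and 1.55 CPM (log2 fold change 1.13, adjusted p = 4.90e-02), a call that was lost without any 1 library of the OCI-LY1 controls or of OCI-LY1 shSIRT3-1. The paired fit also called SLC25A24 in OCI-LY1 with shSIRT3-2 (0.75, adjusted p = 2.64e-02, and 0.128 unpaired). Further down the order adjusted p was 1.22e-02 for SLC25A11, 1.33e-02 for SLC25A42, 2.06e-02 for SLC25A32, 2.21e-02 for SLC25A20, 2.48e-02 for SLC25A25 and 2.79e-02 for SLC25A23. It was 3.86e-02 for SLC25A38, 3.92e-02 for SLC25A34, 4.55e-02 for SLC25A40 and 4.80e-02 for SLC25A44. Of all 13076 genes 41.8% passed the same test. Without HBL1 shSIRT3-1 replicate 3 the count was 19 and SLC25A44 was no longer among them (adjusted p = 5.08e-02), and without replicate 1 of all groups 2 carriers passed.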

How the results depend on the processing

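Of 3760 single-gene values recomputed under alternatives, 3398 were called or uncalled as before, 341 lost the call, 21 gained it and 0 reversed. A value short of the fold limit counted as unchanged even where its adjusted p crossed the limit. For example, SLC25A12 in HBL1 with shSIRT3-1 went from adjusted p = 4.04e-02 to 6.67e-02 without HBL1 shSIRT3-1 replicate 3. Carriers were followed where they had passed the adjusted p limit in the main fit, so the 0 reversals say little about stability. Of 325 counts of called carriers 262 stayed within 1.5 times. Over the 3 lines the counts were 6 (shSIRT3-1), 6 (shSIRT3-2), 2 (both) and 3 (between hairpins). With a pseudocount of 1 shSIRT3-2 called 2 and both called 0. Both called 0 after quantile normalization, 1 after median-ratio scaling, 1 without Karpas422 and 1 without HBL1. Without HBL1 shSIRT3-1 called 3, without OCI-LY1 shSIRT3-2 called 3, and without Karpas422 the contrast between hairpins called 6. In Karpas422 a pseudocount of 1 took shSIRT3-1 from 10 to 6 and both from 4 to 2. In OCI-LY1 shSIRT3-1 went from 2 to 1 with a pseudocount of 1, with no filter and with median-ratio scaling, and shSIRT3-2 from 5 to 3 with no filter. In HBL1 quantile normalization took shSIRT3-1 from 8 to 4 and both from 3 to 1. The cause of these moves was not tested. Leaving out replicates or libraries gave 4 to 6 (shSIRT3-1), 3 to 6 (shSIRT3-2), 1 to 2 (both) and 1 to 3 (between hairpins) over the 3 lines, and 2 to 19 of 18 in the interaction test. In Karpas422 it gave 4 to 10, 2 to 10 and 0 to 5 (from 10, 10 and 4), in OCI-LY1 0 to 3, 0 to 6 and 0 to 0 (from 2, 5 and 0), and in HBL1 0 to 11, 0 to 10 and 0 to 4 (from 8, 8 and 3). Most of the lowest counts came without replicate 1 of all groups, but the 3-line counts against control were lowest without replicate 2. In HBL1 shSIRT3-1 called 0 without replicate 1 and 11 without replicate 3. All these fits had fewer samples than the main one, and why they differed from each other was not tested. Control cells gave 17 to 22 (HBL1 against Karpas422), 19 to 23 (HBL1 against OCI-LY1) and 13 to 18 (Karpas422 against OCI-LY1). Same-numbered libraries mostly deviated together from their group means (26 of 27 pairs over 0.1, mean r 0.32, lowest 0.0144). Pairs with other numbers had a mean r of -0.14, with 12 of 54 over 0.1. Of 27 libraries 22 correlated best with their own number. In Karpas422 and the 3-line fits the number was still not taken as a pairing, because not every pair passed 0.1. These main fits thus leave out a structure that most libraries share. OCI-LY1 and HBL1 each had 9 of 9 pairs over 0.1, but their main fits, counts and calls were also unpaired. For OCI-LY1 and HBL1 the paired fit is given beside the main one where it changed a call against control. With the replicate block the 3-line counts were 6, 6, 2 and 3, the interaction count 22, Karpas422 10, 11 and 5, OCI-LY1 2, 7 and 1 (both, from 0) and HBL1 10, 10 and 4. In OCI-LY1 and HBL1 the block changed no call against control beyond those of SLC25A10, SLC25A24, SLC25A27, SLC25A29 and SLC25A41. In Karpas422 it changed that of SLC25A30 with shSIRT3-2 alone, from adjusted p = 5.09e-02 to 4.25e-02. The 8 members under 1 CPM in all libraries were not tested, so a change in them could not be seen.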
